A study of Capra hircus with 2 samples.

Results

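The miR-29 family was represented by 4 mature goat miRNAs: miR-29a-5p, miR-29b-3p, miR-29c-5p and miR-29c-3p. They were chosen by name, as every arm of chi-miR-29a, chi-miR-29b or chi-miR-29c, from 590 mature miRNAs, of which 314 carried goat miRNA names and 276 were numbered predictions. The family was chosen with earlier results of these data known, so the ranks of its members are not independent of that choice. All 590 had been selected on the authors' call of a different read count between 2 small RNA libraries, so the directions and folds of the 4 arms are descriptions and were not tested. The 3p arm of miR-29a and the 5p arm of miR-29b were not analysed here. The uNK library came from natural killer (NK) cells taken from the uterus of female goats, and the pNK library from NK cells taken from the peripheral blood of female goats. Neither group carries a treatment or genotype in the labels, and age, breed, stage of cycle or pregnancy, number of animals and the marker used for the separation are not stated in the labels. There was 1 library per group, so no spread between animals could be measured. The intervals given are exact 95% Clopper-Pearson intervals on read counts and cover counting error only.

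A miRNA hairpin is cut into a 5p and a 3p arm, and usually the cell keeps more of one arm than of the other. In human and mouse the 3p arms of miR-29a, miR-29b and miR-29c share their seed, the stretch that pairs with target messenger RNAs, and are the arms usually retained. Through it they repress genes of collagens and other matrix proteins and of DNA methyltransferases. In mouse lymphocytes miR-29 also represses T-bet and interferon gamma, which are central to NK cell function. In RefSeq's table of goat genes (assembly ARS1.2), MIR29B and MIR29C lie on the same chromosome with 1 protein-coding gene between them, and MIR29A lies on another chromosome. The 3p arms of miR-29a and miR-29c are nearly identical in human and mouse, so a read can be assigned to the wrong arm. The labels do not say how such reads were assigned. The values of single 3p arms are therefore uncertain.

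The uNK library held 31780925 reads and the pNK library 30063449, as implied by the deposited values, and the 590 miRNAs took 37.4% of the uNK reads and 47.5% of the pNK reads. Marker miRNAs of several cell types, lymphocytes among them, differed between the libraries, in the direction given by the authors' deposited table. Of the marker names, miR-142, miR-181a, miR-205 and miR-486 were not analysed here. All 15 arms of the stromal and smooth muscle list were higher in uNK, with a summed level of 194196 reads per 1000000 reads of the library (RPM) in uNK and 13036 RPM in pNK. All 5 epithelial miRNAs were higher as well, at a summed 3592 RPM in uNK and 257 RPM in pNK, as were both arms of the endothelial miR-126 (10555 and 1769 RPM), all 4 muscle miRNAs (1329 and 107 RPM) and all 4 red cell arms (9817 and 3258 RPM). Both arms of the myeloid miR-223 were lower, at a summed 21.1 RPM in uNK and 28632 RPM in pNK. All 4 arms of the lymphocyte list were lower too, at a summed 186 RPM in uNK and 20518 RPM in pNK. Among them was miR-150, abundant in mature lymphocytes, with 32.2 RPM in uNK and 19052 RPM in pNK. Outside that list, 2 relatives of miR-181b, named after their values were seen, were higher in uNK. These were miR-181c-5p (106 RPM in uNK, 53.4 RPM in pNK) and miR-181d (63.2 RPM in uNK, 20.9 RPM in pNK). Of the listed markers only miR-181b-3p was at 0 reads in a library, in uNK, against 8 reads in pNK. In such preparations a different mix of cells and a different level per cell cannot be told apart, and the part of other cell types in the miR-29 values was not tested.

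miR-29c-3p, the arm known in human and mouse for repressing collagen genes, was read 18741 times in uNK, or 590 RPM (exact Poisson 95% interval 581 to 598), and 44 times in pNK, or 1.46 RPM (1.06 to 1.96). It was abundant in the uterine library and scarce in the blood library. The ratio of the levels was 403-fold higher in uNK (300.0 to 555). Because the pNK count is small, the lower and upper bounds of this fold lie far apart.

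miR-29c-5p, the other arm of the same hairpin, had 92 reads in uNK, or 2.89 RPM (2.33 to 3.55), and 2387 reads in pNK, or 79.4 RPM (76.2 to 82.6). It was the scarcer of the miR-29c arms in uNK and the more abundant in pNK. Its level was 27.4-fold lower in uNK (22.3 to 34.2).

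miR-29b-3p carries the family seed and was the most read of the 4 listed miR-29 arms in the blood library. It had 6551 reads in uNK, or 206 RPM (201 to 211), and 19332 reads in pNK, or 643 RPM (634 to 652). It was the only one of the 4 arms that was abundant in both libraries. Its level was 3.12-fold lower in uNK (3.03 to 3.21), and its log2 ratio in the authors' deposited table, -1.29, was the nearest of the 4 to the smallest absolute log2 ratio of that table, 1.01.

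miR-29a-5p, the arm of miR-29a that is usually discarded, had 130 reads in uNK, or 4.09 RPM (3.42 to 4.86), and 652 reads in pNK, or 21.7 RPM (20.1 to 23.4). It was scarce in both libraries. Its level was 5.30-fold lower in uNK (4.39 to 6.45).

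**Figure D1:**
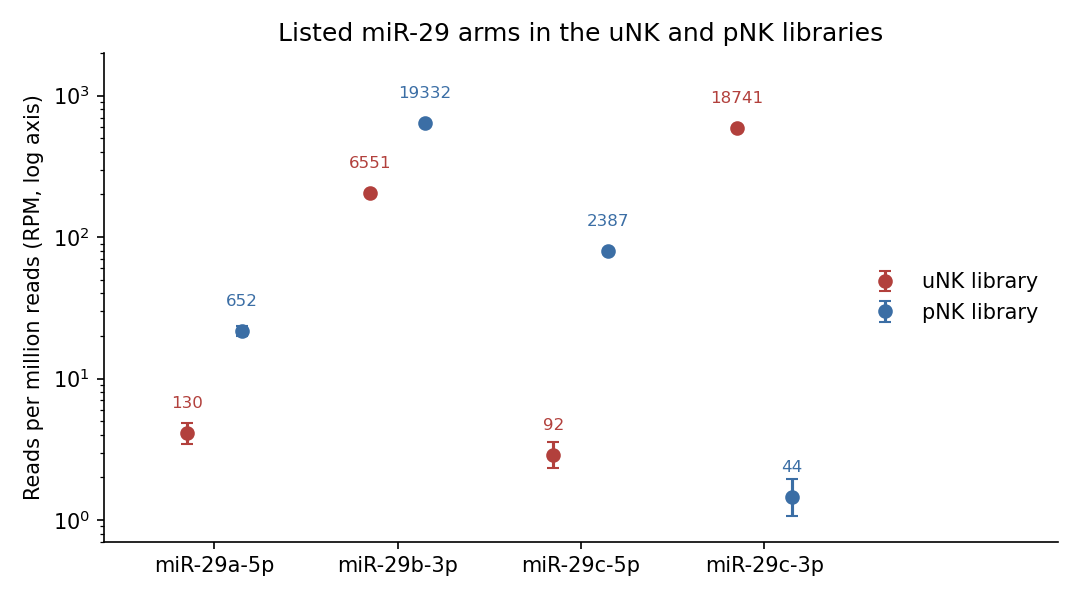
Level of each listed miR-29 arm in RPM (log axis) in the uNK library and the pNK library, with exact 95% Poisson intervals and the read count above each point. Only miR-29c-3p is higher in uNK, with 18741 reads in uNK and 44 in pNK.

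Of the 4 arms, 1 was higher and 3 were lower in uNK. Over all 590 miRNAs 38.0% were higher and 62.0% lower, and over the 314 annotated miRNAs 54.1% were higher and 45.9% lower. Among annotated 5p arms 52.5% were lower, as both listed miR-29 5p arms were, and among annotated 3p arms 53.6% were higher. With so few arms, their division says nothing about the family against this background. One scaling set the median ratio of all 590 miRNAs to 0, a shift of 2.55 log2 units. Under it, the log2 values of miR-29b-3p and miR-29a-5p turned to 0.90 and 0.13, whereas miR-29c-5p stayed lower and miR-29c-3p higher. For this scaling counts of 0 were set to 0.5, and how far the shift depends on that value was not tested.

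The folds of the arms relative to each other do not depend on how the libraries are scaled. The fold of miR-29b-3p exceeded that of miR-29a-5p 1.70 times (exact interval 1.40 to 2.07), a difference larger than counting error. The fold of miR-29a-5p exceeded that of miR-29c-5p 5.17 times (3.87 to 6.93). The fold of miR-29c-3p exceeded that of miR-29b-3p, which shares its seed in other mammals, 1257 times (934 to 1733). All 6 pairs of arms were compared. In each pair the arm with the larger fold was put first, so every ratio is above 1 by construction. Each interval, which covers counting error only, also lay above 1.

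The listed miR-29 reads were similar in number in the libraries and different in make-up. Their sum was 25514 reads in uNK, or 803 RPM, and 22415 reads in pNK, or 746 RPM. The sum was 1.08-fold higher in uNK (1.06 to 1.10) on the RPM scale, but lower, with a log2 fold of -0.56, under a scaling to the median ratio of the miRNAs read in both libraries, so its direction is not settled. The authors' filter keeps out arms that were not called, and the sum therefore need not be that of the whole family.

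miR-29c-3p made up 73.5% of the listed miR-29 reads of uNK (72.9 to 74.0) and 0.196% of those of pNK (0.143 to 0.263). miR-29b-3p made up 25.7% in uNK (25.1 to 26.2) and 86.2% in pNK (85.8 to 86.7). Among the listed arms the leading one was thus miR-29c-3p in the uterine library and miR-29b-3p in the blood library. The listed 5p arms were minor in both libraries. miR-29c-5p took 0.361% in uNK and 10.6% in pNK, and miR-29a-5p 0.510% in uNK and 2.91% in pNK.

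**Figure D2:**
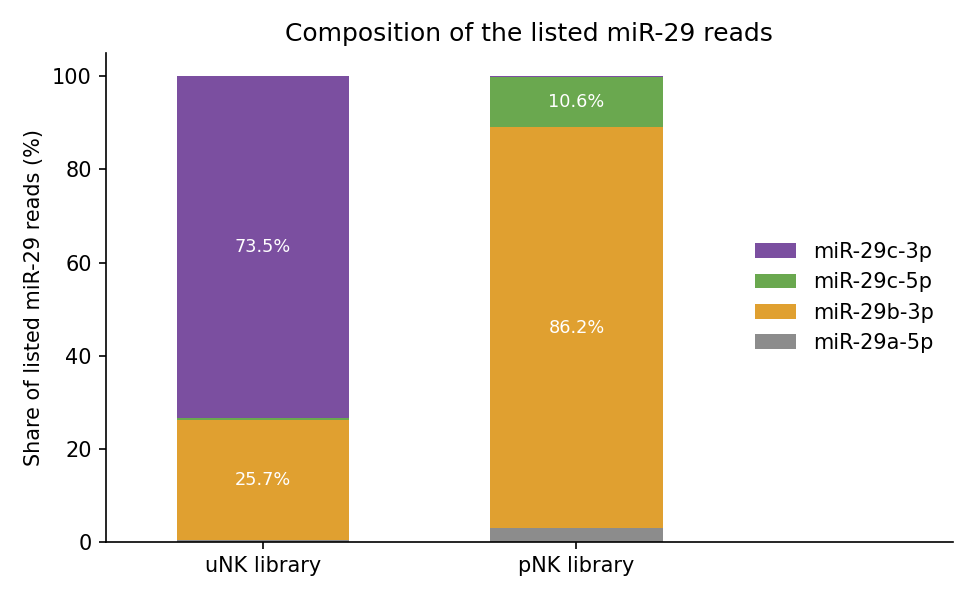
Share of the listed miR-29 reads (%) taken by each arm, as stacked bars for the uNK library (25514 reads) and the pNK library (22415 reads). miR-29c-3p fills 73.5% of the uNK bar, and miR-29b-3p fills 86.2% of the pNK bar.

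The 3p arm of miR-29a, which shares the seed in human and mouse, was not analysed here. The listed arms that carry the seed are miR-29b-3p and miR-29c-3p. Summed over them, there were 25292 reads in uNK, or 796 RPM, and 19376 reads in pNK, or 645 RPM. These levels stood 1.23-fold higher in uNK (1.21 to 1.26), but lower, with a log2 fold of -0.36, under the scaling to the median ratio of the miRNAs read in both libraries. The listed 5p arms together had 222 reads in uNK, or 6.99 RPM, and 3039 reads in pNK, or 101 RPM. Their summed level was 14.5-fold lower in uNK (12.6 to 16.7). Without miR-29c-3p, the other 3 arms summed to 213 RPM in uNK and 744 RPM in pNK, which was 3.49-fold lower (3.40 to 3.59), but higher, with a log2 fold of 0.74, under the scaling to the median ratio of all 590 miRNAs.

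The arms of miR-29c changed places. The 3p arm took 99.5% of the miR-29c reads in uNK (99.4 to 99.6) and 1.81% in pNK (1.32 to 2.42). In uNK the 3p arm was read 204 times as often as the 5p arm, and in pNK the 5p arm was read 54.2 times as often as the 3p arm. The log2 ratio of 5p over 3p reads, with 0.5 counts added to each arm, was -7.66 in uNK and 5.75 in pNK, a difference of -13.41 (exact interval of the odds ratio, -13.98 to -12.89 on the log2 scale). This interval covers counting error only. It leaves out any wrong assignment of reads between miR-29c-3p and miR-29a-3p, which was not tested. The same ratio could not be formed for miR-29a or miR-29b, of which 1 arm each was listed. Both miR-29c arms together had 18833 reads in uNK, or 593 RPM, and 2431 reads in pNK, or 80.9 RPM, which was 7.33-fold higher in uNK (7.02 to 7.65).

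Both arms were listed with at least 10 reads each for 94 precursors, and miR-29c had the largest change of arm ratio among them. The median absolute change over the 94 was 1.11 log2 units. The next 5 precursors were miR-27a (-5.84), miR-27b (-5.75), miR-30a (-4.96), miR-26b (4.72) and miR-362 (-4.16). The arms went in opposite directions in 6 of the 94 (6.38%), which were miR-10a, miR-27b, miR-29c, miR-30a, miR-34c and miR-362. In 5 of these 6 the 5p arm was lower and the 3p arm higher. Over all 94 the median signed change was 0.013 log2 units, and the 3p arm led in 33 precursors in uNK and 35 in pNK. The more abundant arm also differed between the libraries in 6 of the 94 (6.38%), which were miR-29c, miR-130b, miR-34c, miR-144, miR-330 and miR-545. Only miR-29c and miR-34c belonged to both groups, and miR-34c had at most 41 reads per arm and library.

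In shares, the 3p part of the miR-29c reads was 97.7 percentage points higher in uNK. The median absolute shift over the 94 precursors was 1.31 points. Besides miR-29c, only miR-130b shifted by more than 50 points, with 87.5% of its reads on the 3p arm in uNK and 31.0% in pNK. Most precursors therefore kept their leading arm. The reads assigned to miR-29c were almost entirely of the 3p arm in the uterine library and almost entirely of the 5p arm in the blood library.

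**Figure D3:**
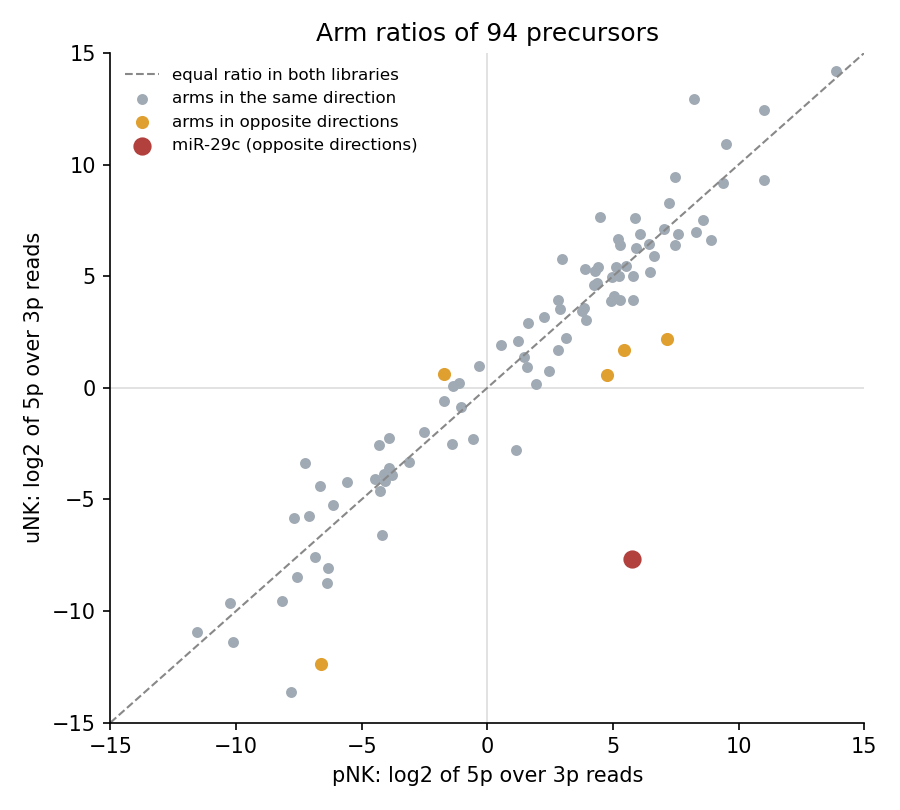
Log2 ratio of 5p over 3p reads of 94 precursors in the uNK library (vertical axis) and the pNK library (horizontal axis), where the dashed line marks equal ratios. miR-29c lies farthest from the line, at -7.66 in uNK and 5.75 in pNK.

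By log2 fold, computed as log2 of the uNK level plus 1 RPM over the pNK level plus 1 RPM, the arms stood at separate places among the 314 annotated miRNAs. miR-29c-3p was the highest of them, at 7.91. miR-29c-5p, at -4.37, was the 21st from the lowest, miR-29a-5p, at -2.16, the 81st, and miR-29b-3p, at -1.64, the 109th. The median over the 314 was 0.58, and over all 590 it was -0.74.

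On this scale, the annotated miRNAs with at least 100 reads in their higher library that lay nearest to miR-29c-3p were miR-199b-3p at 5.91, miR-199c-5p at 4.99 and miR-199a-3p at 4.22, all from a family abundant in fibroblasts. The nearest was thus 1.99 log2 units away, over 2 libraries and 250 candidate miRNAs. This distance depends on the 1 RPM added. By the plain ratio of levels, miR-376e-5p, named after its values were seen, lay close to miR-29c-3p at 302-fold higher in uNK, with 319 reads in uNK and 1 read in pNK and an interval of 53.8 to 11956. Its log2 fold with 1 RPM added was 3.42. The pNK count of miR-29c-3p was 0.235% of its uNK count. Among the 107 miRNAs higher in uNK with at least 500 uNK reads the median was 8.38%, the next lowest value was 1.56%, for miR-199b-3p, and miR-29c-3p was the only one under 1%.

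The other 3 arms lay among many miRNAs of like fold. Nearest to miR-29b-3p (-1.64) were miR-10a-5p (-1.64), miR-106a-5p (-1.58) and miR-30a-5p (-1.75). Nearest to miR-29a-5p (-2.16) were miR-671-3p (-2.15), miR-1296 (-2.15) and miR-23a (-2.18). Nearest to miR-29c-5p (-4.37) were miR-18b-5p (-4.37), miR-147-3p (-4.39) and miR-1388-3p (-4.34). With 2 libraries, such likeness covers only the size of the fold.

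**Figure D4:**
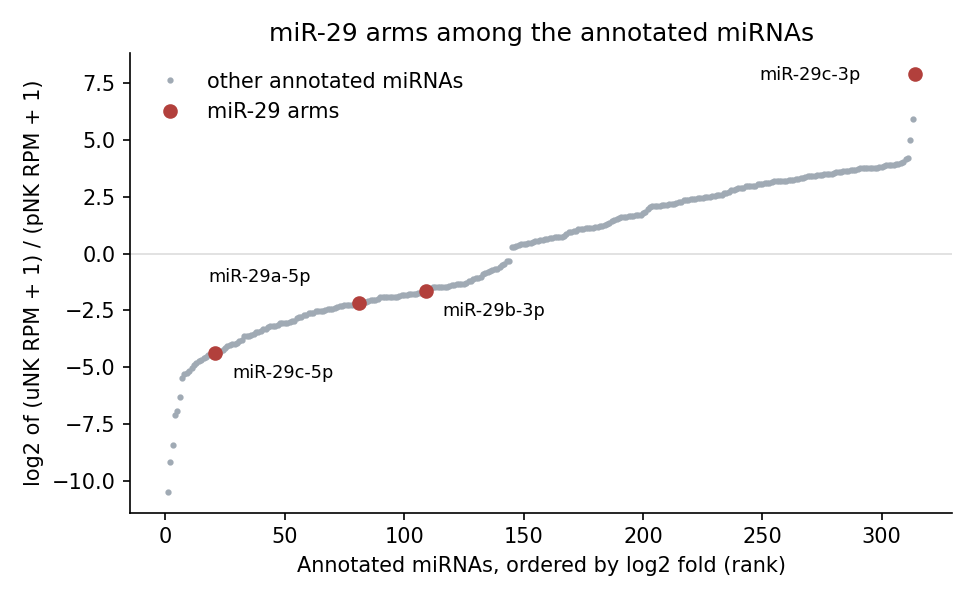
Log2 fold of the 314 annotated miRNAs, with 1 RPM added to each library, ordered from the lowest to the highest, where filled red circles mark the miR-29 arms. miR-29c-3p is the highest point, at 7.91, and the other 3 arms lie between -4.37 and -1.64.

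By abundance, the arms also held different places. miR-29c-3p ranked 40th of the 590 miRNAs in uNK and 358th in pNK. miR-29b-3p ranked 65th in uNK and 50th in pNK. miR-29c-5p ranked 267th in uNK and 113th in pNK, and miR-29a-5p 243rd in uNK and 158th in pNK. The 4 arms were a small part of either library, since the largest single share of the listed reads was 0.158%, of miR-29c-3p in uNK, and 0.135%, of miR-29b-3p in pNK.

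miRNAs known in human or mouse to act on collagen genes or fibroblast activation had 32 listed arms, of which 19 (59.4%) stood higher and 13 lower in uNK. That share is near the 54.1% of all annotated miRNAs that were higher. The median log2 fold was 3.17 on the list, against 0.58 over the annotated miRNAs. The lowest absolute log2 ratio the authors gave was 1.01, so a list's median can move far with a small change in share. Without the 4 miR-29 arms, 18 were higher and 10 lower. The most abundant were miR-143-3p, of smooth muscle and stromal cells (14.7-fold higher, 14.6 to 14.7), miR-21-5p, induced in inflammation and fibrosis (6.57-fold lower, 6.56 to 6.59), and miR-199b-3p (60.7-fold higher, 58.9 to 62.5). miR-29c-3p had the highest log2 fold on the list, and the other 3 miR-29 arms were among its 13 lower members.

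miRNAs known to act in NK or T cells had 36 listed arms, of which 9 stood higher and 27 (75.0%) lower in uNK, against 45.9% lower among annotated miRNAs and 62.0% among all 590. The median log2 fold was -2.38 on the list, against 0.58 over the annotated miRNAs and -0.74 over all 590. Under the scaling to the median ratio of all 590 miRNAs the list's median was -0.16. Without the miR-29 arms 8 were higher and 24 lower. Its most abundant members were miR-21-5p, miR-27a-3p (4.89-fold lower, 4.87 to 4.91) and miR-223-3p, a myeloid miRNA (1508-fold lower, 1390 to 1640). The log2 folds of miR-29b-3p and miR-29a-5p lay above the median of this list, that of miR-29c-5p lay below it, and miR-29c-3p was its highest member.

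miRNAs known to act on DNA methyltransferase or TET genes, the writers and erasers of DNA methylation, had 21 listed arms, of which 11 (52.4%) stood higher and 10 lower in uNK. That share is near the 54.1% of all annotated miRNAs. The median log2 fold was 0.43, near the 0.58 of the annotated miRNAs, and turned negative among members with at least 100 reads. Without the miR-29 arms, 10 were higher and 7 lower. The most abundant were miR-143-3p, miR-26b-5p (3.75-fold lower, 3.73 to 3.77) and let-7b-5p (4.46-fold higher, 4.43 to 4.48). All 3 lists hold only miRNAs that the authors called different, and some miRNAs stand on more than 1 list.

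**Figure D5:**
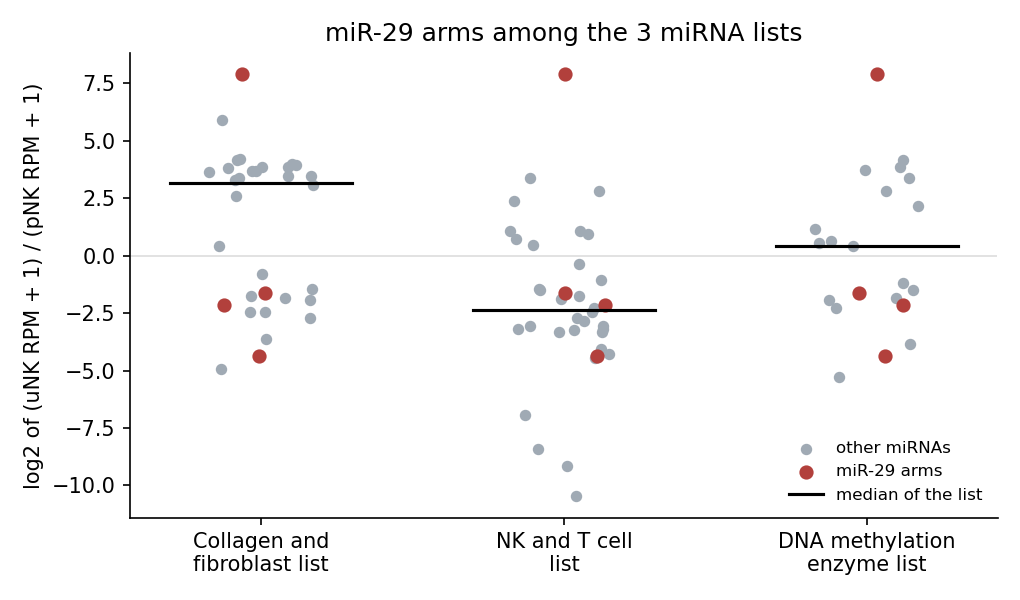
Log2 fold, with 1 RPM added to each library, of the listed arms of 3 lists of miRNAs by known role, where red circles mark the miR-29 arms and black bars the median of a list. miR-29c-3p is the highest point on each list, and the medians are 3.17, -2.38 and 0.43.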

How the data were processed

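Small RNA was sequenced from 1 uNK and 1 pNK library, after Trizol extraction per the labels' protocols. The sources used here do not give the aligner, the counter, the build or the annotation. The deposited table, named for DEGseq and a filter on differential expression, holds read counts (whole numbers), expression values that behave as RPM (in the deposited file, counts over values are constant within a library), and the authors' log2 ratio (uNK over pNK), p-value and q-value per the file headers. The highest q-value is 0.000815 and the lowest absolute log2 ratio 1.01.

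Library sizes were the counts over the RPM of miRNAs with at least 5000 reads. Folds are ratios of RPM recomputed from counts, with exact Clopper-Pearson intervals. Log2 folds had 1 RPM added, which understates changes of low miRNAs. Folds as ratios of RPM were not computed where a count was 0. In the alternative with no pseudocount, a floor of 3 counts replaced a count of 0. For the median ratio of all 590 miRNAs, a count of 0 was set to 0.5 instead. Arm ratios had 0.5 counts added, with conditional exact odds ratio intervals, and needed at least 10 reads per arm. Folds and arm ratios were checked on simulated data. No p-value was computed. Intervals assume independent molecules, and no molecular identifiers are mentioned.

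Named were all miR-29 arms, the 3 annotated miRNAs nearest in log2 fold to each (at least 100 reads), the 5 other precursors with the largest change of arm ratio, precursors with arms in opposite directions, and the 3 most abundant members of each of 3 lists; precursors whose leading arm differed were named after their values were seen. The members and lists were chosen with earlier results of these data known. Alternatives were scaling (listed totals, median ratios, TMM in edgeR 4.0.16, R 4.3.3), pseudocounts, filters on reads and fold, and the arms summed. Python 3.11.15, numpy 2.4.6, pandas 2.3.3, scipy 1.17.1 and matplotlib 3.10.9 were used.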

Additional observations from a re-analysis of the deposited data

How the results depend on the processing

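No paired analysis was possible because there was only 1 library in a group, and no library could be left out. Of 80 recomputed values, 43 moved beyond counting error and 5 changed sign. Of the other 32, 23 were log2 values within counting error and 9 were numbers of arms or ranks within 1.5 times the reported one. The arm ratio of miR-29c stayed within counting error and its rank at 1 under the alternatives run; the number of arms lower was 2 in place of 3 at an absolute log2 fold of at least 2, and otherwise 3. Scalings shift all values together and were computed on called miRNAs only; the cause of the other moves was not tested. The log2 fold of miR-29c-3p (7.91 as reported) was 9.80 with the median ratio of all miRNAs, 8.48 with TMM, 7.36 with the median ratio of the 373 miRNAs read in both libraries (chosen after seeing the data), 6.52 with 5 RPM added, 8.65 with none and 9.00 in the authors' deposited table (likewise chosen after). For miR-29b-3p (-1.64) it was -1.29 with the listed totals and, to the same 2 decimals, in the deposited table, -0.90 with TMM, -2.30 with the median of miRNAs read in both, and turned to 0.90 with the median of all. For miR-29c-5p (-4.37) the values were -4.07 (listed totals), -2.08 (median of all), -3.72 (TMM), -4.94 (read in both), -3.42 (5 RPM) and -4.78 (none). For miR-29a-5p (-2.16) they were -1.85 (listed totals), -1.50 (TMM), -2.74 (read in both) and -1.55 (5 RPM), turning to 0.13 with the median of all. The family sum (0.11) was 0.45 with the listed totals, 2.65 with the median of all, 0.85 with TMM and 0.30 over 3p arms, and turned to -0.56 with the median of miRNAs read in both and to -1.80 without miR-29c-3p. The collagen list median (3.17) was 3.50, 5.53, 3.87 and 2.53 under the listed totals, median of all, TMM and median of both, 2.70 with 5 RPM, and 3.34 with at least 100 reads and also without the miR-29 arms, an alternative chosen after seeing the data. The NK and T cell median (-2.38) was -2.03, -0.16, -1.64 and -3.04 under the same scalings, -2.60 without a pseudocount and -2.72 with at least 100 reads. The DNA methylation median (0.43) was 1.15 with the median of all, 0.62 with TMM, 0.044 with the median of both, 0.63 with 0.5 RPM, 0.11 with 5 RPM and 0.72 with none, and turned to -0.46 with at least 100 reads. Depth limits miR-29c-3p most, with 44 reads in pNK.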
